A study of Homo sapiens with 60 samples.

Results

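Interferon-stimulated genes are the genes that cells switch on when an interferon binds its receptor. A list of 40 of them was examined in SW1783, a human astrocytoma cell line. The members were found by matching the listed gene symbols to the Ensembl identifiers of the deposited table, where RIGI may carry its older name DDX58. All 40 of the listed genes were found among the 60675 genes of the table, and all 40 passed the filter on low counts. Cells had been treated for 24 h with water extracts of 6 herbs, with 3 drugs or with vehicle, and RNA was sequenced from 60 libraries in 22 groups.

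The drugs were wortmannin and LY294002, which inhibit phosphoinositide 3-kinases, and thioridazine, a phenothiazine antipsychotic, each at 10 µM. The extracts were of licorice (Glycyrrhizae Radix), Panax Ginseng, Atractylodis Rhizoma, Poria Cocos, peony (Paeoniae Radix) and Angelicae Gigantis Radix, each at 20, 100 and 500 µg/mL, called the low, medium and high dose here. The vehicle was DMSO, which the sample labels give as 0.1% and the series text as 2%. The angelica and peony groups had 2 libraries at each dose, and the other 16 groups, vehicle included, had 3. Whether the libraries of a group came from separate cultures was not stated, so p-values cover the spread of these libraries, which may be technical. In bulk RNA, fewer cells expressing a gene and less of its RNA per cell cannot be told apart.

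Type I and type III interferons act through JAK kinases that phosphorylate STAT proteins, among them STAT2, which join IRF9 in a complex that binds the interferon-stimulated response element (ISRE). Type II interferon acts mainly through the gamma-activated site (GAS). The products sense viral RNA, block its translation or degrade it, hold virions at the membrane, and feed back on the pathway. Astrocytes and many tumour cells keep some of these genes expressed without added interferon.

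Promoter sequence is shown for the members because these motifs define the family's best known input. RefSeq promoters (GRCh38.p14, 250 bases before to 50 after the gene start) were available for 32 of the 40 members. GBP2, IFIT2, IRF7, MX2, OAS2, OASL, TRIM22 and USP18 had no entry. The ISRE core was searched as GAAANNGAAA on both strands. The GAS core was searched as TTCNNNGAA, which reads the same on both strands. An ISRE core was present in 21 of 32 members (65.6%), against 1195 of 27305 genes with a promoter in the table (4.38%). A GAS core was present in 10 of 32 members (31.2%), against 2560 of 27305 genes (9.38%). A match describes these letters and is not evidence of binding.

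Of the members with an ISRE core, the 8 with the smallest p in licorice at the high dose are printed, each from 10 bases before its first match to 10 after its last, or to the gene start where that was nearer. Capitals mark the ISRE cores, and all sequences are given 5′ to 3′ on the strand of the gene. DDX60 (chr4:168318786-168318850, minus strand), an RNA helicase, has 2 cores. IFI27 (chr14:94110618-94110660, plus strand), a mitochondrial protein, has 2 that lie on opposite strands. ISG15 (chr1:1013374-1013409, plus strand), a ubiquitin-like modifier, has 2 that overlap. OAS3 (chr12:112938321-112938473, plus strand), which makes the 2-5A second messenger, has 2 far apart. IFI6 (chr1:27672266-27672358, minus strand) has 3. IFIT3 (chr10:89327831-89327894, plus strand), of the family that binds foreign RNA ends, has 2 before the start shown and 2 others before a further start. IFIT5 (chr10:89414513-89414567, plus strand), of the same family, has 3, and the third crosses the gene start, so that only its first bases are printed, in lower case. IFIH1 (chr2:162318686-162318853, minus strand), which encodes the RNA sensor MDA5, has 3.
DDX60: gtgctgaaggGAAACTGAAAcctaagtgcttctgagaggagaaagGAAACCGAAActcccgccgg
IFI27: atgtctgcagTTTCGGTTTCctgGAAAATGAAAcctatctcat
ISG15: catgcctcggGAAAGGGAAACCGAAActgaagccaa
OAS3: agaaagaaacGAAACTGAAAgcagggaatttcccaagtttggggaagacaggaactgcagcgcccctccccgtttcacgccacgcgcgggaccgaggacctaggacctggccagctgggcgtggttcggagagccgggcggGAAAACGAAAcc
IFI6: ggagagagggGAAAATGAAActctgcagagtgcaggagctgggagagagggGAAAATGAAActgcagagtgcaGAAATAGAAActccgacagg
IFIT3: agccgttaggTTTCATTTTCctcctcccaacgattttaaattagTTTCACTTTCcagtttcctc
IFIT5: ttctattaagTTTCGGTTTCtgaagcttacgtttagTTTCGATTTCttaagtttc
IFIH1: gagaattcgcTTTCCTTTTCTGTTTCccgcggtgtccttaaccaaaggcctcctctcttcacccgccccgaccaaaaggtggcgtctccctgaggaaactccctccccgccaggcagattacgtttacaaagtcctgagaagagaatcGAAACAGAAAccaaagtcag

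The GAS core is shown, in capitals, in the 2 transcription factors of the list that hold one, IRF1 (chr5:132490879-132490907, minus strand) and IRF9 (chr14:24161192-24161220, plus strand). Their promoter windows hold no ISRE core.
IRF1: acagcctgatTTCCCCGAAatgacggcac
IRF9: accacgtgatTTCTGGGAAaaggccctcc

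Library totals ran between 19446226 and 30870890 counts. Each comparison was made in 1 edgeR quasi-likelihood fit over 17919 genes, with p-values adjusted over all of them, and a gene is called higher or lower at an adjusted p under 0.05. Fold changes are log2 and levels are CPM, the count of a gene per 1e+06 counts of its library. The vehicle libraries carry a sample code set of their own, the drugs another, and the extracts come in pairs that share a set (poria with atractylodes, licorice with ginseng, angelica with peony). Against vehicle, code set and treatment therefore cannot be told apart, whereas comparisons of doses of 1 extract lie within a set. The astroglial genes VIM and CD44 were abundant, while GFAP, S100B, AQP4, ALDH1L1 and FABP7 were near 0 and did not pass the filter.

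Levels per kilobase of exon (GENCODE 29) were spread over 3 orders of magnitude among the members. Averaged over the 22 groups, LGALS3BP, a secreted glycoprotein, had 107 CPM per kb and BST2 (tetherin, which holds budding virions at the membrane) had 82.9 CPM per kb. IFI6 followed at 38.1 and ISG15 at 32.2 CPM per kb. At the other end, OAS1 had 0.24, CMPK2 0.159 and RSAD2 (viperin) 0.0999 CPM per kb. By CPM without the length correction, the members with the highest mean were LGALS3BP, BST2, IFI44 and SAMD9. LGALS3BP alone made up 37.1% of the summed CPM of the list in vehicle.

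Licorice at the high dose was the treatment in which the list moved as a whole. Of 40 members, 34 were called higher and 0 lower, where 15.9% of all genes tested were called higher and 15% lower (30.9% in all). All 40 fold changes were positive, with a median of 0.59 against 0.00825 over all genes. Members also varied together between libraries of the same group (median pairwise correlation 0.45), so the 40 are not separate observations of the treatment. The changes were mostly modest: 7 members rose at least 2-fold, among 241 genes in all that did so. By p, the first member stood at rank 205 of the 2849 genes called higher, and 6 members were among the first 500.

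All 4 transcription factors of the list rose. IRF9, the DNA-binding subunit of the complex that holds STAT2, had 30.28, 29.79 and 40.87 CPM in licorice libraries, against 17.84, 17.01 and 18.34 CPM in vehicle libraries. The groups did not overlap, and the log2 fold change was 0.88 (SE 0.18, adjusted p = 0.000135). Vehicle had the lowest IRF9 mean of the 22 groups, 17.73 CPM, where the mean over these groups was 20.74 CPM. IRF7, which amplifies type I interferon production, had 7.273, 9.303 and 9.001 CPM in licorice libraries and 5.156, 4.424 and 4.384 CPM in vehicle libraries, again without overlap (log2 fold change 0.82, adjusted p = 1.15e-06). STAT2 rose by 0.55 and IRF1, a factor induced by type II interferon, by 0.31 on the log2 scale. STAT2 and IRF1 did not overlap with vehicle either.

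The 3 sensors of viral RNA rose by nearly the same amount. DDX60 had 20.09, 23.19 and 26.34 CPM in licorice libraries, against 14.7, 13.72 and 13.26 CPM in vehicle libraries. The lowest licorice library lay well above the highest vehicle library, and the log2 fold change was 0.69 (SE 0.10, adjusted p = 1.13e-07). Vehicle had the lowest DDX60 mean of the 22 groups, 13.89 CPM, where the mean over these groups was 17.07 CPM. IFIH1 also rose by 0.69, and RIGI, the RIG-I helicase, rose by 0.66.

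Of the ISG15 conjugation system, 3 of 4 members rose. ISG15 had 44.56, 40.53 and 56.79 CPM in licorice libraries, against 25.91, 25.44 and 25.86 CPM in vehicle libraries. The vehicle libraries were nearly equal and all below the licorice libraries (log2 fold change 0.83, SE 0.12, adjusted p = 5.34e-07). The ligase gene HERC6 rose by 0.82 and USP18, the protease that removes ISG15 and restrains the receptor, by 0.58. HERC5, the main human ISG15 ligase, was not called, with a log2 fold change of 0.15 (SE 0.16, adjusted p = 0.531).

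The OAS family, whose products activate RNase L, rose in all 4 members. OAS3 had 39.36, 39.53 and 50.68 CPM in licorice libraries and 24.87, 24.16 and 25.68 CPM in vehicle libraries. The groups did not overlap (log2 fold change 0.74, adjusted p = 5.18e-06). OAS1 had the largest fold change of the list, 1.78 (SE 0.45, adjusted p = 0.00191), from a low level of 2.694, 2.315 and 4.61 CPM in licorice libraries against 1.071, 0.7604 and 0.8767 CPM in vehicle libraries. OAS2 rose by 1.05 and OASL, the catalytically inactive relative that binds RIG-I, by 0.57.

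The antiviral GTPases MX1, MX2, GBP1 and GBP2 were all called higher. MX1 had 24.86, 28.13 and 50.38 CPM in licorice libraries, against 12.29, 11.16 and 11 CPM in vehicle libraries. Replicate 3 stood far above the other licorice libraries, and all 3 were above vehicle (log2 fold change 1.54, SE 0.38, adjusted p = 0.00172). MX2, its neighbour on chromosome 21, rose by 1.09. GBP1 and GBP2, which attack the vacuoles of intracellular pathogens, rose by only 0.18 and 0.28.

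Of the IFIT family, 3 of 4 members were called. IFIT1 had 13.08, 16.07 and 22.69 CPM in licorice libraries, against 11.65, 10.65 and 9.498 CPM in vehicle libraries (log2 fold change 0.65, adjusted p = 0.0265). IFIT3 rose by 0.60 and IFIT5 by 0.34. IFIT2, which lies in the same cluster on chromosome 10, overlapped with vehicle at 10.35, 11.57 and 13.1 CPM in licorice libraries and 13.26, 10.68 and 7.269 CPM in vehicle libraries. RSAD2 and CMPK2, which share a locus on chromosome 2 and act together on nucleotides, rose by 1.36 and 1.21 on the log2 scale, both at levels under or near 1 CPM in most libraries.

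Among membrane and secreted effectors, IFI27 rose most. It had 25.7, 24.63 and 37.36 CPM in licorice libraries, against 12.86, 13.0 and 11.54 CPM in vehicle libraries. The groups were far apart (log2 fold change 1.18, SE 0.16, adjusted p = 1.19e-07). IFI6, another small mitochondrial and endoplasmic reticulum protein, rose by 0.79. BST2 had 97.51, 98.63 and 111.2 CPM in licorice libraries and 80.68, 85.89 and 86.36 CPM in vehicle libraries, a rise of 0.23. Vehicle had the lowest BST2 mean of the 22 groups, 84.31 CPM, where the mean over these groups was 92.81 CPM. LGALS3BP, the most abundant member, was not called, at 416.5, 402.9 and 410.4 CPM in licorice libraries and 384.7, 377.6 and 379.1 CPM in vehicle libraries (log2 fold change 0.06, SE 0.05).

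IFI35, a cytosolic protein that can signal outside the cell, had the smallest p of the list. It had 31.94, 29.22 and 33.85 CPM in licorice libraries, against 19.75, 18.53 and 18.89 CPM in vehicle libraries. The spread within each group was small beside the gap (log2 fold change 0.68, SE 0.08, adjusted p = 5.47e-10). IFI44L rose by 0.46 and XAF1, a pro-apoptotic binding partner of XIAP, by 0.65. IFI44, from the same locus as IFI44L, had 38.86, 43.07 and 50.53 CPM in licorice libraries against 38.4, 38.5 and 36.2 CPM in vehicle libraries and was not called (0.18, adjusted p = 0.17). EPSTI1 was not called either (0.31, adjusted p = 0.217).

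SAMD9 and SAMD9L, neighbouring genes on chromosome 7 that restrict poxviruses and translation, rose by 0.38 and 0.58. SAMD9 had 48.45, 52.15 and 58.32 CPM in licorice libraries, against 41.21, 38.3 and 38.36 CPM in vehicle libraries. The groups did not overlap. DTX3L rose by 0.37, while PARP9, its protein partner, was not called at 0.28 (adjusted p = 0.0903). SP110, a nuclear body protein, and TRIM22, a ubiquitin ligase, rose by 0.38 and 0.43.

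**Figure D1:**
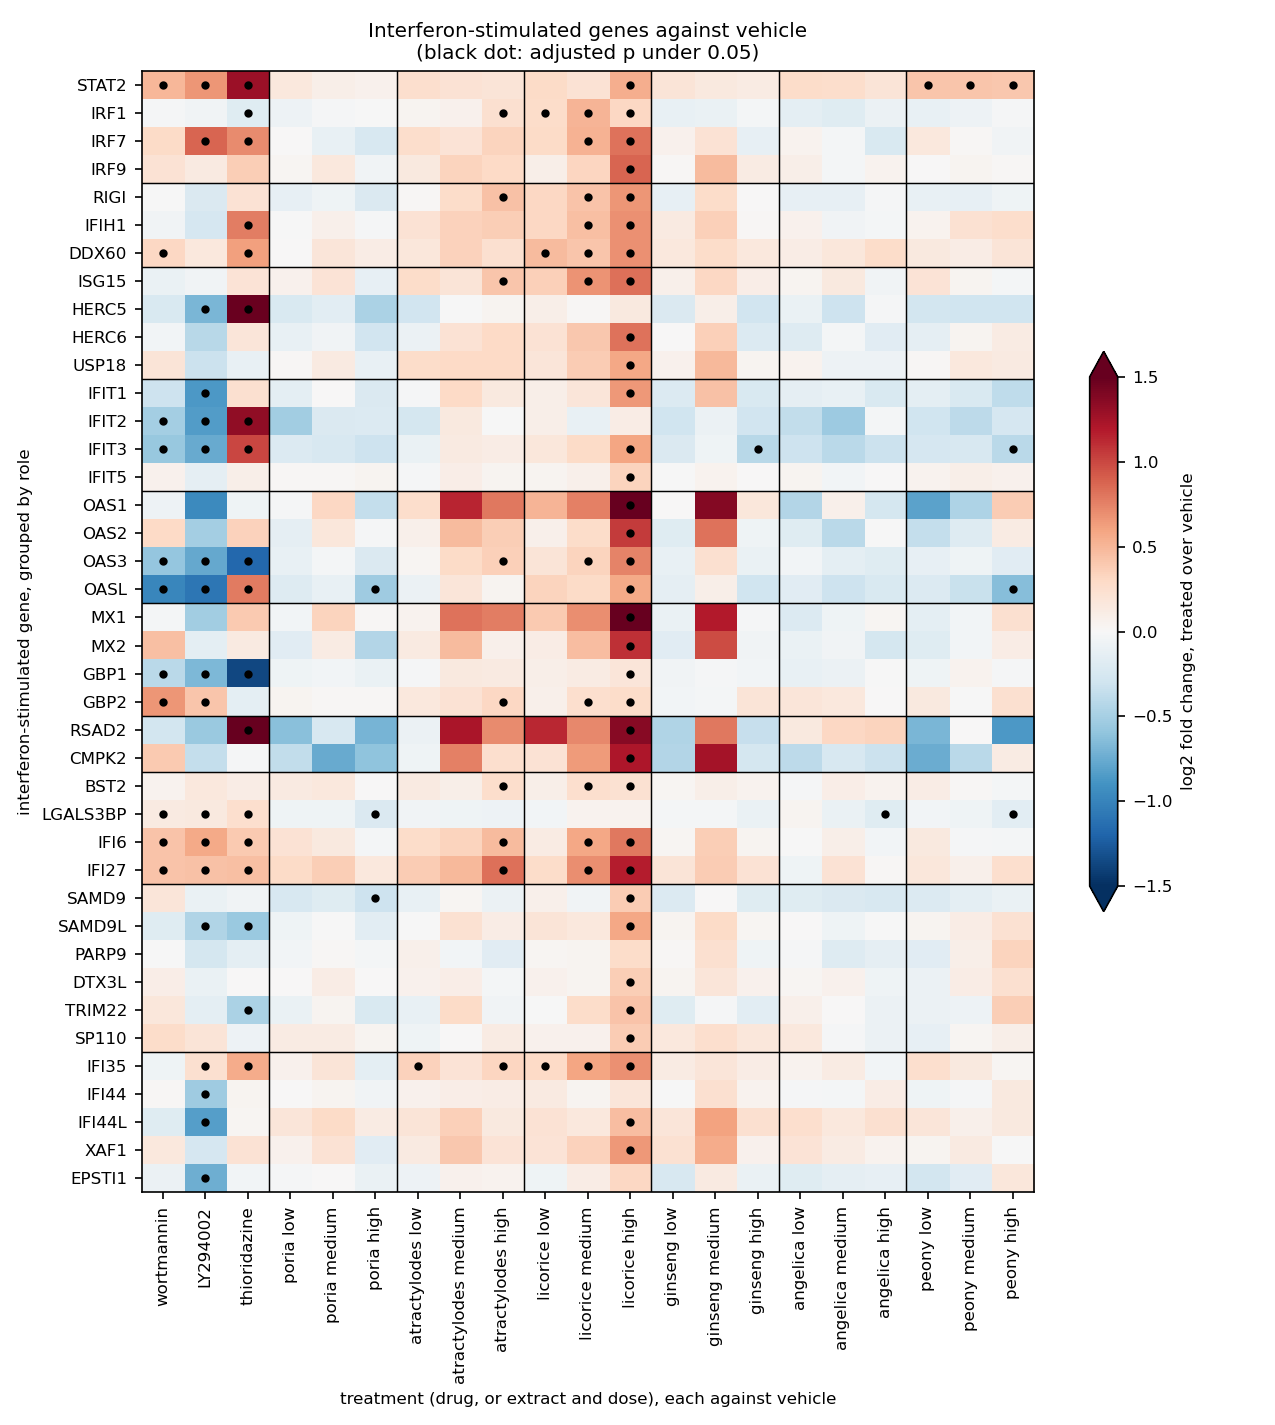
Log2 fold changes of the 40 interferon-stimulated genes, in order of role (vertical axis), for each drug and each extract dose against vehicle (horizontal axis); black dots mark an adjusted p under 0.05. The column of licorice at the high dose is positive in all 40 genes and carries 34 dots, while the drug columns mix both signs.

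One library carried part of these values. Licorice high replicate 3 had the highest level of the group in 36 of 40 members and a summed CPM of 1549, against 1284 and 1319 in the other 2 licorice high libraries and 1011 to 1040 in vehicle libraries. Without it, 23 members were called higher and the median was 0.46, with all 40 fold changes still positive. The calls lost were BST2, CMPK2, GBP1, IFI44L, IFIT1, MX2, OAS2, SP110, TRIM22, USP18 and XAF1. MX1 then rose by 1.16 (adjusted p = 0.0363) and IFI27 by 0.97 (adjusted p = 1.16e-05). Leaving out single other libraries cost at most 5 calls, among them GBP1, GBP2, IFI44L, IFIT1, CMPK2, RSAD2, SP110 and TRIM22. With the licorice high and vehicle libraries fitted alone, 29 members were called, and IFI44L, IFIT1, IFIT3, MX2, OASL and XAF1 were not among them.

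Members whose promoter window matched the exact ISRE core pattern were not the ones called more often. Of the 21 members with a core, 16 were called higher in licorice at the high dose, with a median log2 fold change of 0.46. Of the 11 members whose window held none, 11 were called, with a median of 0.66. Of the 8 without a promoter entry, 7 were called. The search fixed the spacing between the repeated letters of the core. Windows of OAS1, RIGI, XAF1, CMPK2 and IFI35, counted as holding none, have these letters with a shorter spacing. The counts therefore describe this exact pattern, and whether a looser form of the element goes with the calls was not tested.

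The count of members called and their median increased with licorice dose, the step from low to medium resting largely on 1 library. At 20, 100 and 500 µg/mL, 3, 12 and 34 members were called higher against vehicle and 0 lower, where 1.53%, 12.4% and 15.9% of all genes were called higher and 1.76%, 12.8% and 15% lower (3.29%, 25.2% and 30.9% in all). The medians over the members were 0.17, 0.28 and 0.59, and 28 members had means that increased in the order low, medium, high, while 0 decreased in that order. With peony 19 members increased in that order and 6 decreased, and with atractylodes 10 and 3. For angelica the counts were 7 and 9, for poria 3 and 5, and for ginseng 2 and 2. The share of all genes in this order was not counted. At the low dose the called members were IRF1 (log2 fold change 0.27, adjusted p = 0.00476), DDX60 (0.47, adjusted p = 0.00284) and IFI35 (0.30, adjusted p = 0.0207). IFI35 lost its call without any 1 of the 6 libraries (adjusted p 0.054 to 0.0878) and IRF1 without vehicle replicate 1 (0.0502). All 3 were also called at the medium dose, where IRF7, RIGI, IFIH1, ISG15, OAS3, GBP2, BST2, IFI6 and IFI27 joined them. At that dose OAS3 lost its call without 5 of the 6 libraries (adjusted p up to 0.246), IFIH1 without 4 (0.205), GBP2 without 3 (0.303) and BST2 without licorice medium replicate 3 (0.053). Licorice medium replicate 2 had the highest level of its group in 32 of 40 members. Without it the median at the medium dose was 0.19, near the 0.17 of the low dose, with 30 positive fold changes.

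IRF1 was an exception to the dose order. It had 36.68, 39.66 and 39.03 CPM at the low dose, 43.0, 42.51 and 49.3 CPM at the medium dose and 36.56, 40.88 and 42.15 CPM at the high dose. Vehicle libraries had 30.1, 31.94 and 31.05 CPM. The medium dose was highest, and the log2 fold change of high against low dose was 0.04 (SE 0.06, adjusted p = 0.731).

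Within licorice, high against low dose called 19 members higher and 0 lower, where 9.02% of all genes were called higher and 9.14% lower. All 40 fold changes were positive, with a median of 0.38 against 0 over all genes. IFI27 had 25.7, 24.63 and 37.36 CPM at the high dose, against 18.08, 13.15 and 15.31 CPM at the low dose. The groups were separate (log2 fold change 0.90, SE 0.15, adjusted p = 2.36e-05). IFI35 had 31.94, 29.22 and 33.85 CPM at the high dose and 24.62, 24.26 and 23.52 CPM at the low dose (log2 fold change 0.38, adjusted p = 0.000183). OAS3 had 39.36, 39.53 and 50.68 CPM at the high dose and 32.01, 26.69 and 29.16 CPM at the low dose (log2 fold change 0.55, adjusted p = 0.000747). MX1 and OAS1 rose by 1.15 and 1.27, with adjusted p of 0.0251 and 0.0313.

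This dose contrast rested more on replicate 3 than the contrast with vehicle did. Without licorice high replicate 3, 7 members were called and the median was 0.25, with 38 positive fold changes. The calls lost were DTX3L, HERC6, IFIT3, ISG15, MX1, MX2, OAS1, OAS2, RIGI, SAMD9, SAMD9L and STAT2. Leaving out other licorice libraries gave between 13 and 26 calls, and MX1 and OAS1 lost theirs without 4 of the 6 libraries. With the licorice high and low libraries fitted alone, 20 members were called, of which 11 were shared. IFI27 (log2 fold change 0.91, adjusted p = 0.0595), HERC6, IFI6, ISG15, MX1, MX2, OAS2 and STAT2 were then no longer called.

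**Figure D2:**
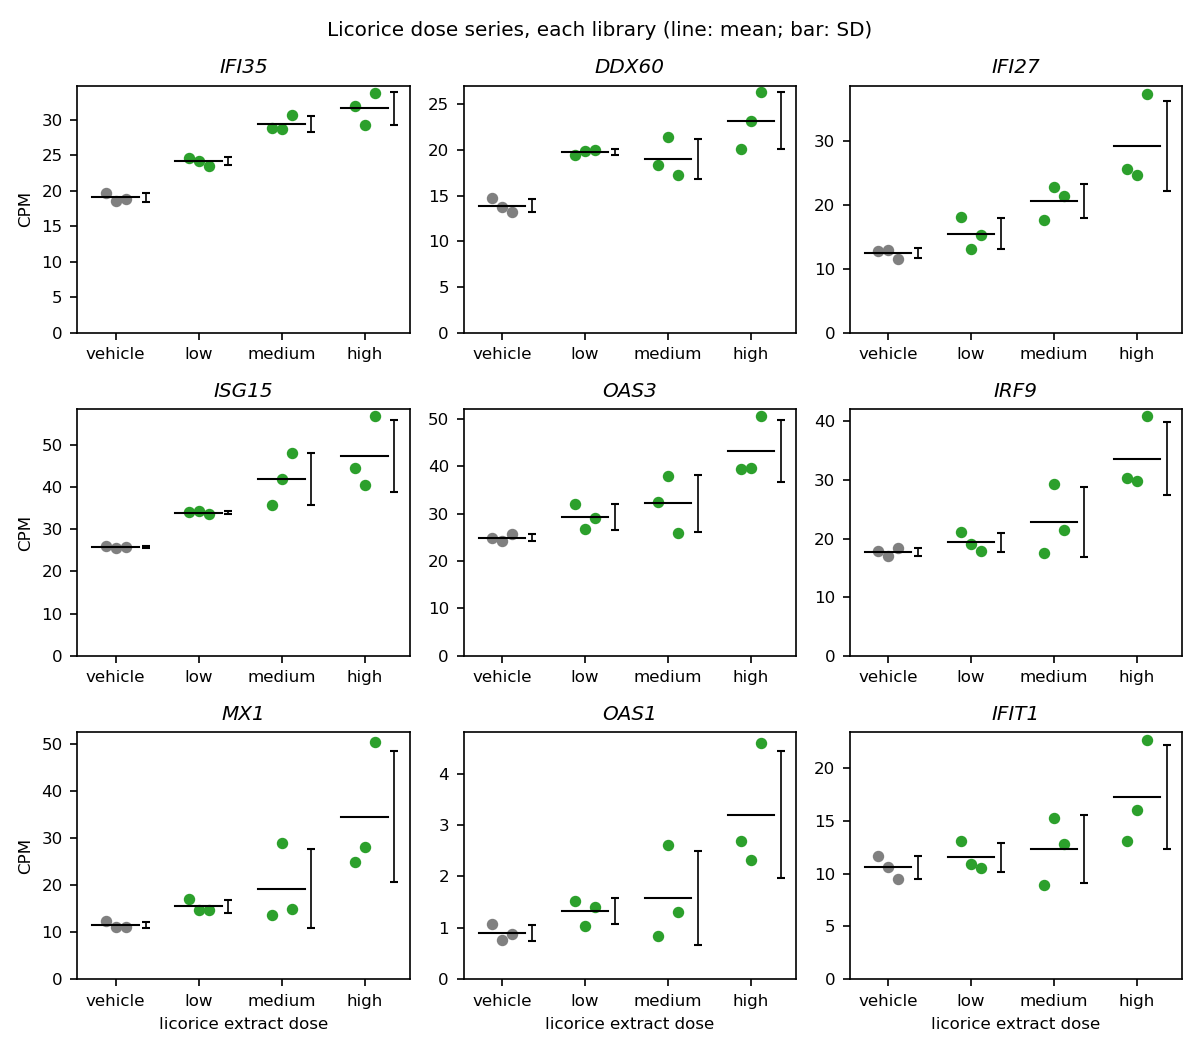
CPM of 9 members (vertical axes, from 0) in each vehicle library and in each library of licorice at the low, medium and high dose (horizontal axes); lines are means and bars SDs over 3 libraries. Means increase with dose in most panels, and the highest MX1 point, 50.38 CPM, is replicate 3 of the high dose.

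The difference between dose effects was tested against ginseng, which shared the code set. Ginseng at the high against the low dose called 0 of 40 members (1 at an unadjusted p under 0.05, 0 by DESeq2), where 0.223% of all genes were called higher and 0.43% lower. The high-minus-low change was larger in licorice than in ginseng in 7 members and smaller in 0, where 6.87% of all genes were called larger and 6.52% smaller. The median difference over the members was 0.39, against -0.00265 over all genes. The 7 were IRF7, HERC6, IFIT3, OAS3, IFI6, IFI27 and IFI35. For IFI27 the difference was 0.88 (SE 0.23, adjusted p = 0.00579), with ginseng at 14.44, 15.16 and 15.83 CPM at the high dose and 12.52, 15.05 and 16.31 CPM at the low dose. Without licorice high replicate 3 the count was 3, the calls lost being HERC6, IFI6, IFIT3 and OAS3. IFI6 and OAS3 each lost their call in 7 of the 12 fits that left out 1 library (adjusted p up to 0.191 and 0.143).

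**Figure D3:**
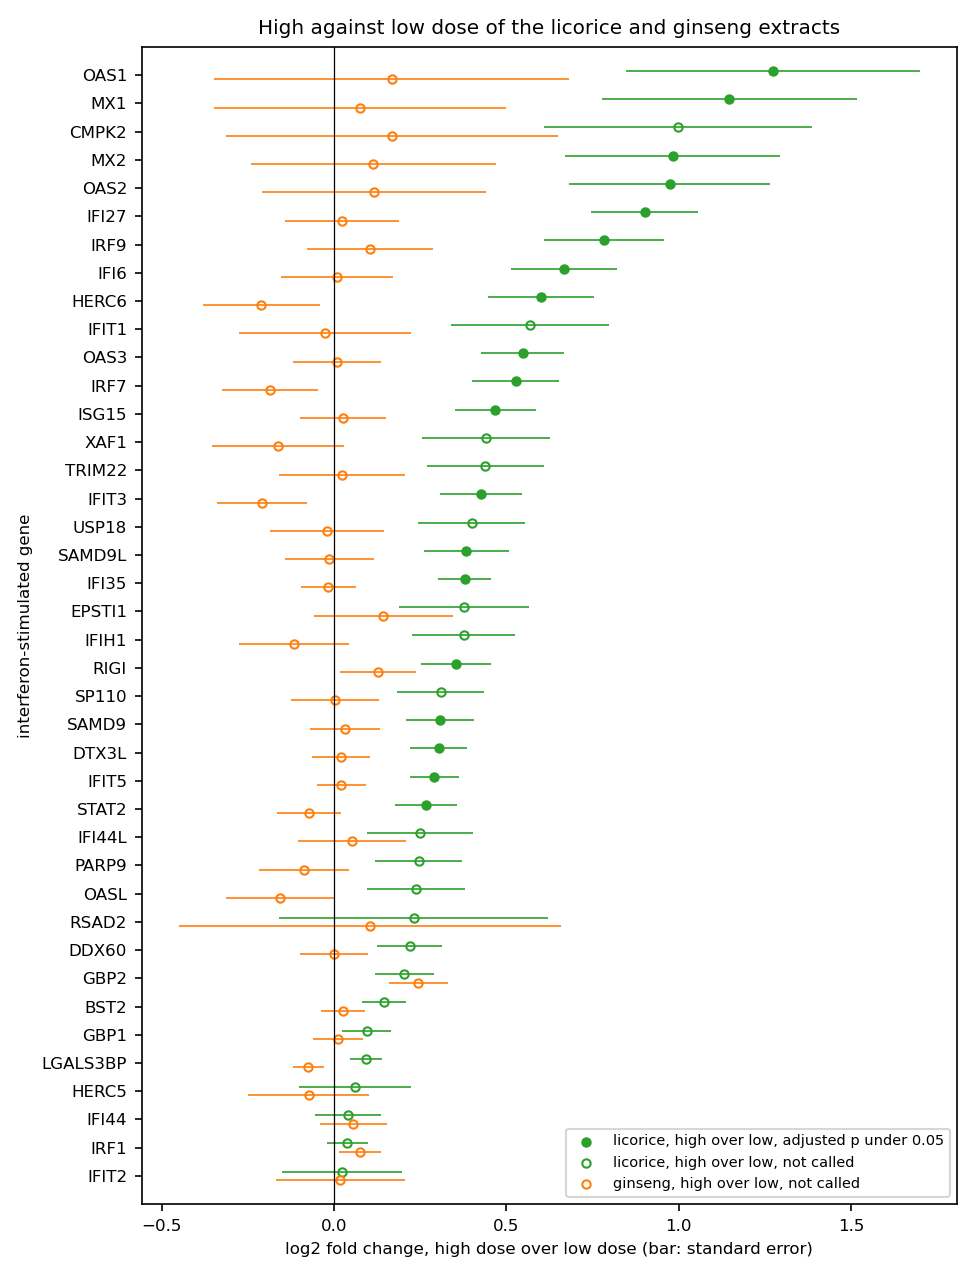
Log2 fold change of high over low dose (horizontal axis, bars are standard errors) for each of the 40 genes (vertical axis) in the licorice and ginseng extracts; filled points have an adjusted p under 0.05. The licorice points all lie above 0 and 19 are filled, while none of the ginseng points is filled.

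The atractylodes extract raised a smaller set. At the high dose 9 members were called higher and 0 lower, where 7.24% of all genes were called higher and 6.63% lower. The median over the members was 0.22, against 0.00559 over all genes. The 9 were IRF1, RIGI, ISG15, OAS3, GBP2, BST2, IFI6, IFI27 and IFI35, all of which licorice at the high dose also raised, in a comparison that shares the vehicle libraries.

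IFI27 had 25.18, 21.62 and 20.33 CPM in atractylodes high libraries, against 12.86, 13.0 and 11.54 CPM in vehicle libraries (log2 fold change 0.83, SE 0.16, adjusted p = 0.000353). BST2 had 118.6, 94.48 and 92.53 CPM in atractylodes high libraries and 80.68, 85.89 and 86.36 CPM in vehicle libraries (0.26, adjusted p = 0.00321). Replicate 1 carried most of the BST2 difference, and in neither gene did the groups overlap. RIGI had 18.16, 19.07 and 16.78 CPM in atractylodes high libraries, against 13.12, 13.55 and 12.97 CPM in vehicle libraries (0.43, adjusted p = 0.00353). IFI35 had 26.87, 22.94 and 22.04 CPM in atractylodes high libraries and 19.75, 18.53 and 18.89 CPM in vehicle libraries (0.32, adjusted p = 0.00476).

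Without atractylodes high replicate 1, 5 members were called and BST2, IFI35, IFI6, ISG15 and OAS3 were no longer among them, while STAT2 was gained. OAS3 lost its call without any 1 of the 6 libraries (adjusted p 0.0874 to 0.119) and IFI6 without 5 of them. GBP2 lost its call without vehicle replicate 1 (adjusted p = 0.176) and ISG15 also without vehicle replicate 3. At the low dose IFI35 alone was called, at 23.97, 24.28 and 26.16 CPM in atractylodes low libraries (log2 fold change 0.35, adjusted p = 0.0197, up to 0.138 without single libraries), where 0.324% of all genes were called higher and 0.48% lower (0.804% in all). At the medium dose 0 members were called (15 at an unadjusted p under 0.05, all higher, and 0 by DESeq2), where 0.675% of all genes were called higher and 0.385% lower (1.06% in all). The median there was 0.22 and 37 fold changes were positive, and replicate 3 had the highest level of the group in 34 members.

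High against low dose of atractylodes called RIGI higher and no member lower, where 2.24% of all genes were called higher and 1.86% lower. RIGI had 18.16, 19.07 and 16.78 CPM at the high dose, against 12.97, 13.99 and 13.96 CPM at the low dose (log2 fold change 0.42, SE 0.11, adjusted p = 0.0114). For poria, which shared the code set, RIGI had 13.3, 11.18 and 11.04 CPM at the high dose and 11.83, 13.17 and 12.16 CPM at the low dose. The poria-minus-atractylodes difference of dose effects was -0.52 (SE 0.16, adjusted p = 0.0492), the only one of 40 members called, where 1.5% of all genes were called higher and 2.03% lower. Without single libraries its adjusted p lay between 0.0261 and 0.13, and 10 of 12 such fits lost the call.

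Ginseng at the medium dose showed how far 1 library can stand from its group. Replicate 1 had a summed CPM of 1411, against 1019 and 1052 in the other 2 libraries, and the highest level in 38 of 40 members. MX1 had 59.2, 10.59 and 10.12 CPM in these libraries and OAS1 had 5.533, 0.6918 and 0.9234 CPM. IRF9 had 38.15, 19.2 and 17.89 CPM and IFI44L had 61.98, 29.7 and 32.32 CPM. Against vehicle, 0 members were called (20 at an unadjusted p under 0.05, all higher, and 1, IFI44L, by DESeq2), where 0.167% of all genes were called higher and 0.402% lower. The median over the members was 0.25, and -0.05 without replicate 1. Its total was 25845438 counts, against 23127472 and 25992245 in the other 2 libraries, with counts in 23369 genes against 23050 and 23359. What else set it apart was not tested.

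**Figure D4:**
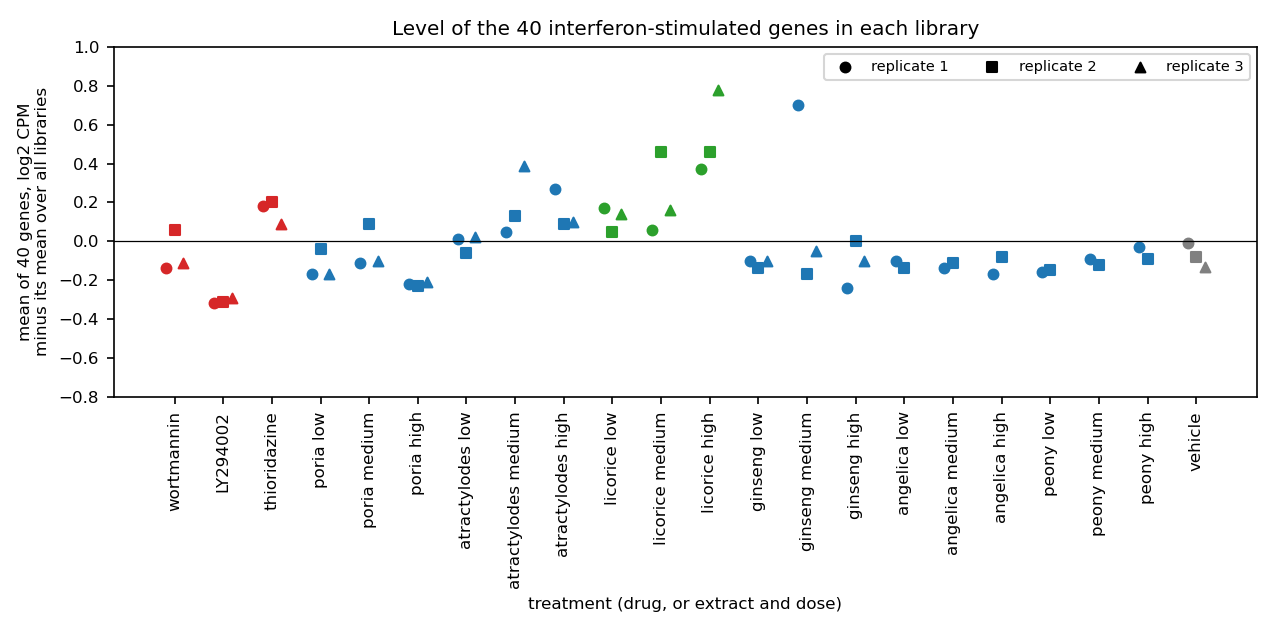
Mean log2 CPM of the 40 genes in each library, relative to the mean over all libraries (vertical axis), by treatment and dose (horizontal axis), with a marker for each replicate number. Replicate 1 of ginseng medium (0.70) and replicate 3 of licorice high (0.78) are the highest libraries, and the 3 LY294002 libraries lie between -0.32 and -0.29.

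The remaining extract groups gave few calls. Poria high called 0 higher and 3 lower, where 5.17% of all genes were called higher and 6.41% lower. LGALS3BP had 344.1, 337.5 and 341.8 CPM in poria high libraries, against 384.7, 377.6 and 379.1 CPM in vehicle libraries (log2 fold change -0.22, SE 0.05, adjusted p = 0.000688). OASL had 9.024, 6.665 and 6.81 CPM in poria high libraries and 11.52, 11.92 and 7.635 CPM in vehicle libraries, which overlapped (-0.53, adjusted p = 0.0212). SAMD9 had 32.66, 31.41 and 35.02 CPM in poria high libraries and 41.21, 38.3 and 38.36 CPM in vehicle libraries (-0.31, adjusted p = 0.0407). SAMD9 lost its call without 5 of the 6 libraries and OASL without 4, whereas LGALS3BP kept it in all 6 fits. LGALS3BP was also lower in poria high than in poria low, at 381.6, 364.2 and 374.1 CPM in the low dose libraries (-0.16, adjusted p = 0.0271, up to 0.15 without single libraries), where 2.73% of all genes were called higher and 2.78% lower.

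Poria low and medium called 0 members (3 at an unadjusted p under 0.05 in each, and 0 by DESeq2), where 0.117% and 0.43% of all genes were called higher and 0.301% and 1.04% lower. Ginseng low also called 0 (2 unadjusted, 0 by DESeq2), where 0.218% of all genes were called higher and 0.374% lower. Ginseng high called 1, IFIT3, lower, where 3.05% of all genes were called higher and 4.2% lower (7.25% in all). IFIT3 had 16.63, 19.55 and 20.01 CPM in ginseng high libraries, against 27.45, 25.06 and 19.54 CPM in vehicle libraries. The groups overlapped (log2 fold change -0.42, adjusted p = 0.035, up to 0.236 without single libraries).

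Angelica low and medium called 0 members (3 and 4 at an unadjusted p under 0.05, and 0 and 1 by DESeq2), where 1.05% and 1.47% of all genes were called higher and 0.692% and 1.44% lower (1.75% and 2.91% in all). Angelica high called LGALS3BP lower, where 2.94% of all genes were called higher and 3.53% lower. It had 352.1 and 348.3 CPM in angelica high libraries, against 384.7, 377.6 and 379.1 CPM in vehicle libraries (log2 fold change -0.18, adjusted p = 0.0191, up to 0.218 without single libraries). LGALS3BP was also lower in angelica high than in angelica low, at 373.5 and 427.7 CPM in the low dose libraries (-0.22, adjusted p = 0.031), a call lost without 3 of the 4 libraries, with an adjusted p of 0.943 without angelica low replicate 2, where 0.385% of all genes were called higher and 0.558% lower.

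STAT2 was called higher than vehicle at every dose of peony. STAT2 had 33.9 and 34.46 CPM at the low dose, 33.99 and 33.91 CPM at the medium dose and 33.79 and 36.29 CPM at the high dose. Vehicle libraries had 24.71, 23.33 and 26.16 CPM, below all 6 peony libraries. Vehicle also had the lowest STAT2 mean of the 22 groups, 24.73 CPM, where the mean over these groups was 32.28 CPM. Peony and vehicle differ in code set, so whether peony itself changed STAT2 was not tested by this contrast. The log2 fold changes against vehicle were 0.42, 0.42 and 0.41, with adjusted p of 0.00859, 0.0135 and 0.00331, so the level did not follow the dose. Leaving out 1 library raised the adjusted p to as much as 0.122 at the low dose, 0.175 at the medium dose and 0.0871 at the high dose, past the threshold at each. STAT2 was the 1 member called at the low and the medium dose, where 2.73% and 1.56% of all genes were called higher and 2.5% and 0.988% lower. At the high dose it was joined by 3 members called lower, where 10.3% of all genes were called higher and 10.4% lower. OASL had 7.662 and 6.757 CPM in peony high libraries, against 11.52, 11.92 and 7.635 CPM in vehicle libraries (-0.63, adjusted p = 0.0108).

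LGALS3BP had 358.8 and 372.4 CPM in peony high libraries and 384.7, 377.6 and 379.1 CPM in vehicle libraries (-0.16, adjusted p = 0.0224). IFIT3 had 19.18 and 19.74 CPM in peony high libraries and 27.45, 25.06 and 19.54 CPM in vehicle libraries (-0.40, adjusted p = 0.0434). OASL and IFIT3 overlapped with vehicle and each lost its call without any 1 of 4 of the 5 libraries, and LGALS3BP without peony high replicate 1 (adjusted p = 0.427) or vehicle replicate 1. High against low dose of peony called PARP9 and DTX3L higher and none lower, where 2.78% of all genes were called higher and 3.13% lower. PARP9 had 15.12 and 14.11 CPM at the high dose, against 9.159 and 10.67 CPM at the low dose (0.51, adjusted p = 0.0476). DTX3L had 25.66 and 23.17 CPM at the high dose and 18.83 and 18.59 CPM at the low dose (0.33, adjusted p = 0.0497). Peony high replicate 1 had the lowest total of the series and counts in more genes (37765) than other libraries. PARP9 lost its call without any 1 of the 4 libraries (adjusted p 0.0653 to 0.317) and DTX3L without 3 of them (up to 0.342). The difference of dose effects between angelica and peony called 0 members (3 at an unadjusted p under 0.05, 0 by DESeq2), where 0.564% of all genes were called higher and 0.374% lower.

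The drugs split the list. Thioridazine called 13 members higher and 5 lower, a share of 45.0% of the members where 48.4% of all genes were called (24.6% higher and 23.8% lower), so the count itself was no larger than the background. Its values differed widely between families. STAT2 had 60.05, 64.05 and 65.16 CPM in thioridazine libraries, against 24.71, 23.33 and 26.16 CPM in vehicle libraries. No other group mean of STAT2 was as high (log2 fold change 1.28, SE 0.09, adjusted p = 3.81e-17). HERC5 had 5.917, 6.486 and 5.92 CPM in thioridazine libraries and 2.076, 2.005 and 2.155 CPM in vehicle libraries (1.48, SE 0.15, adjusted p = 1.69e-12). The vehicle libraries of both genes lay within narrow ranges far below.

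GBP1 and OAS3 went the other way under thioridazine. GBP1 had 12.49, 12.54 and 12.45 CPM in thioridazine libraries, against 30.33, 31.38 and 30.17 CPM in vehicle libraries (log2 fold change -1.36, SE 0.08, adjusted p = 5.46e-21). OAS3 had 11.72, 11.78 and 11.23 CPM in thioridazine libraries and 24.87, 24.16 and 25.68 CPM in vehicle libraries (-1.18, SE 0.14, adjusted p = 1.52e-09). OASL, of the same family as OAS3, rose by 0.78, and OAS1 (-0.06) and OAS2 (0.35) were not called. Within the IFIT cluster, IFIT2 rose by 1.33 and IFIT3 by 1.00, while IFIT1 (0.24, adjusted p = 0.423) and IFIT5 (0.09, adjusted p = 0.314) were not called. RSAD2 rose by 1.5, IFIH1 by 0.76, IRF7 by 0.71, DDX60 by 0.62 and IFI35 by 0.56. LGALS3BP rose by 0.25, at 464.2, 478.2 and 487.2 CPM in thioridazine libraries against 384.7, 377.6 and 379.1 CPM in vehicle libraries. IRF1, SAMD9L and TRIM22 fell by 0.18, 0.55 and 0.47 on the log2 scale. IFI6 (0.39) and TRIM22 lost their calls without 5 of the 6 libraries, and IFI27 (0.46) and IRF1 without 2.

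LY294002 called 7 members higher and 11 lower, again 45.0% of the members, where 39.3% of all genes were called (19.4% higher and 19.9% lower). The median over the members was -0.25, against 0.0168 over all genes, and LY294002 had the lowest group mean of 19 members. GBP1 had 19.71, 19.36 and 19.74 CPM in LY294002 libraries, against 30.33, 31.38 and 30.17 CPM in vehicle libraries (log2 fold change -0.67, SE 0.08, adjusted p = 2.89e-10). OASL had 4.907, 5.423 and 4.632 CPM in LY294002 libraries and 11.52, 11.92 and 7.635 CPM in vehicle libraries (-1.09, SE 0.17, adjusted p = 1.23e-06). In both genes every LY294002 library was below every vehicle library. IFIT1, IFIT2 and IFIT3 fell by 0.86, 0.84 and 0.76, and IFI44 and IFI44L by 0.53 and 0.82. HERC5, EPSTI1, OAS3 and SAMD9L fell by 0.69, 0.73, 0.77 and 0.46.

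STAT2 and IRF7 rose under LY294002 while the members named above fell. STAT2 had 40.92, 36.27 and 42.22 CPM in LY294002 libraries, against 24.71, 23.33 and 26.16 CPM in vehicle libraries (log2 fold change 0.66, SE 0.09, adjusted p = 6.95e-08). IRF7 had 8.275, 9.363 and 8.543 CPM in LY294002 libraries and 5.156, 4.424 and 4.384 CPM in vehicle libraries (0.88, SE 0.13, adjusted p = 1.63e-07). GBP2, IFI6, IFI27, IFI35 and LGALS3BP also rose, by 0.41, 0.57, 0.44, 0.24 and 0.15. IFI27 lost its call without 3 of the 6 libraries and IFI35 without 2.

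Wortmannin called 6 members higher and 5 lower, where 15.4% of all genes were called higher and 16.4% lower, and the median was 0.01 against 0.0194 over all genes. GBP2 had 12.06, 12.82 and 13.7 CPM in wortmannin libraries, against 6.629, 8.468 and 8.767 CPM in vehicle libraries (log2 fold change 0.67, SE 0.08, adjusted p = 3.51e-09). GBP1 had 22.54, 26.01 and 22.41 CPM in wortmannin libraries and 30.33, 31.38 and 30.17 CPM in vehicle libraries (-0.40, SE 0.07, adjusted p = 1.88e-05). These genes of 1 cluster on chromosome 1 moved in opposite directions under both kinase inhibitors.

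OASL had 5.086, 5.616 and 5.407 CPM in wortmannin libraries, against 11.52, 11.92 and 7.635 CPM in vehicle libraries (log2 fold change -0.98, adjusted p = 6.69e-06). STAT2 had 35.29, 37.13 and 34.48 CPM in wortmannin libraries and 24.71, 23.33 and 26.16 CPM in vehicle libraries (0.50, adjusted p = 2.29e-05). Neither gene overlapped between groups. DDX60, IFI6, IFI27 and LGALS3BP rose by 0.31, 0.43, 0.42 and 0.13, and IFIT2, IFIT3 and OAS3 fell by 0.51, 0.57 and 0.57. IFI6, IFI27 and IFIT2 each lost their call without 4 of the 6 libraries.

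**Figure D5:**
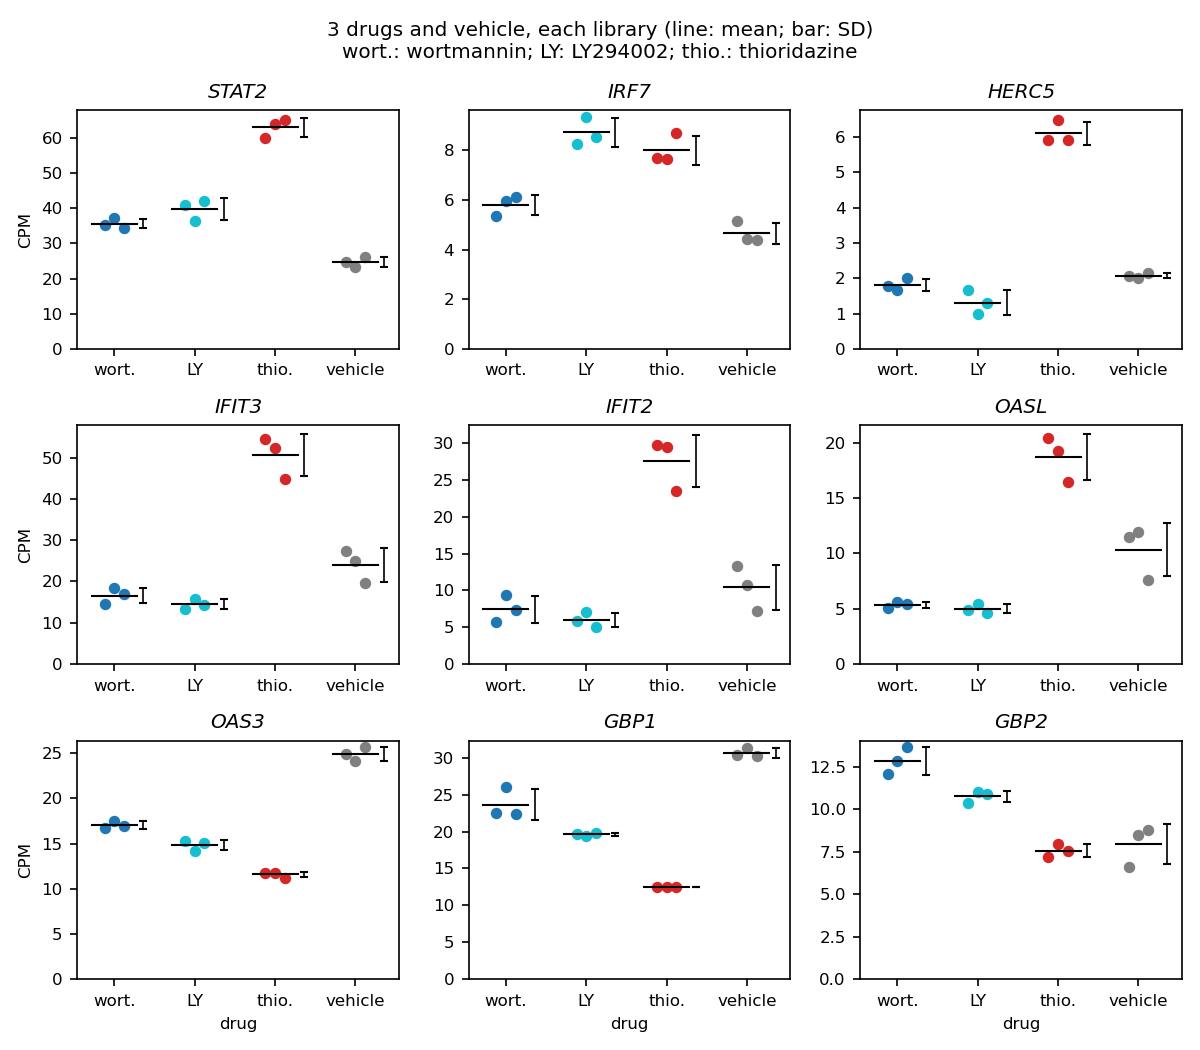
CPM of 9 members (vertical axes, from 0) in each library of wortmannin, LY294002, thioridazine and vehicle (horizontal axes); lines are means and bars SDs over 3 libraries. STAT2 is above vehicle under all 3 drugs and GBP1 below, while the means of IFIT2, IFIT3 and OASL are above vehicle under thioridazine and below it under both kinase inhibitors.

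The kinase inhibitors also differed from each other. Wortmannin over LY294002 called 7 members higher and 2 lower, where 8.79% of all genes were called higher and 7.57% lower. IFI44 had 37.33, 43.3 and 36.33 CPM in wortmannin libraries, against 28.32, 27.07 and 24.6 CPM in LY294002 libraries (log2 fold change 0.55, SE 0.10, adjusted p = 0.000111). IRF7 had 5.356, 5.949 and 6.111 CPM in wortmannin libraries and 8.275, 9.363 and 8.543 CPM in LY294002 libraries (-0.59, SE 0.13, adjusted p = 0.000552). IFI35 had 16.22, 19.55 and 20.22 CPM in wortmannin libraries and 20.08, 21.99 and 26.46 CPM in LY294002 libraries, which overlapped (-0.30, adjusted p = 0.00769). USP18, GBP1, GBP2, SAMD9, IFI44L and EPSTI1 were the other members higher under wortmannin, with between 4 and 8 members called in all when single libraries were left out. SAMD9 lost its call without 5 of the 6 libraries, and USP18, GBP2 and EPSTI1 without 4. For OASL and IFIT3 the differences were 0.11 (SE 0.19) and 0.20 (SE 0.14) and were not called.

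Thioridazine over LY294002 called 17 members higher and 3 lower, where 19.5% of all genes were called higher and 20.4% lower. HERC5 had 5.917, 6.486 and 5.92 CPM in thioridazine libraries, against 1.663, 0.9744 and 1.291 CPM in LY294002 libraries (log2 fold change 2.17, adjusted p = 1.1e-16). IFIT3 had 54.54, 52.4 and 44.82 CPM in thioridazine libraries and 13.43, 15.72 and 14.24 CPM in LY294002 libraries (1.76, adjusted p = 2.23e-15). IFIT2 had 29.8, 29.48 and 23.53 CPM in thioridazine libraries and 5.78, 7.033 and 5.088 CPM in LY294002 libraries (2.17, adjusted p = 1.73e-13). In none of these 3 genes did the groups overlap. OAS2 lost its call without any 1 of the 6 libraries (adjusted p 0.0503 to 0.0983) and OAS3 without 5.

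Thioridazine over wortmannin called 11 higher and 7 lower, where 18.9% of all genes were called higher and 19.8% lower. GBP1 had 12.49, 12.54 and 12.45 CPM in thioridazine libraries, against 22.54, 26.01 and 22.41 CPM in wortmannin libraries (-0.96, adjusted p = 1.74e-14). IFIT3 (1.57, adjusted p = 3.93e-14) had 14.56, 18.33 and 16.85 CPM in wortmannin libraries and HERC5 (1.71, adjusted p = 6.65e-14) had 1.772, 1.663 and 2.0 CPM, all below the thioridazine libraries given above. IRF1, LGALS3BP, SAMD9L and SP110 lost their calls without 4 of the 6 libraries, and DDX60 without thioridazine replicate 1 (adjusted p = 0.0641).

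Set side by side, the 3 drugs and licorice at the high dose gave 16 patterns of calls over the 40 members, and all 4 share the vehicle libraries. In 16 members the gene was called higher with licorice and with no drug. The share of all genes with each pattern was not counted, so these counts have no background to be set against. STAT2, IFI6 and IFI27 were called higher in all 4. IFI6 lost its call without 4 of the 6 libraries for wortmannin and without 5 for thioridazine. IFI27 lost its call without 4 of the 6 for wortmannin, 3 for LY294002 and 2 for thioridazine. For STAT2 and IFI6 vehicle had the lowest mean of the 22 groups, at 24.73 and 27.15 CPM. OAS3 and GBP1 were called higher with licorice and lower with all 3 drugs. The GBP1 call with licorice was lost without 5 of the 6 libraries (adjusted p up to 0.194) and with DESeq2. IFIT3 and OASL were called higher with licorice and with thioridazine, and lower with both kinase inhibitors.

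Genes upstream of and beside the members were read from further lists. Of 10 interferon genes, 8 were near 0 and did not pass the filter, IFNB1 with 20 counts over all 60 libraries and IFNL2 with 0. Both genes that passed were lower in licorice at the high dose, where 15% of all genes were called lower. IFNE, an epithelial type I interferon, had 2.809, 2.228 and 2.525 CPM in licorice high libraries, against 4.218, 5.668 and 5.151 CPM in vehicle libraries, and it had 8.862, 8.609 and 8.407 CPM in wortmannin libraries. IFNA1 averaged 0.0839 ± 0.0876 CPM in licorice high libraries and 0.336 ± 0.128 CPM in vehicle libraries (SD, n = 3 each).

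Among receptors, kinases and STATs, IFNAR1, IFNAR2 and IFNGR1 were higher and JAK1 and STAT3 lower in licorice high. IFNGR1, a chain of the interferon gamma receptor, had 71.11, 74.47 and 72.26 CPM in licorice high libraries, against 56.34, 60.14 and 56.37 CPM in vehicle libraries. STAT3 had 189.2, 186.6 and 180.9 CPM in licorice high libraries and 215.3, 207.7 and 218.0 CPM in vehicle libraries. Neither gene overlapped. Of 15 further sensors and adaptors, 12 passed the filter and 5 were higher (CGAS, IKBKE, IRF3, TRIM25 and EIF2AK2). In that comparison 15.9% of all genes were called higher and 15% lower. TRIM25, the ligase that activates RIG-I, had 97.12, 100.9 and 106.7 CPM in licorice high libraries and 72.41, 73.27 and 73.13 CPM in vehicle libraries.

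Of 27 further interferon-induced antiviral genes, 24 passed the filter, and 11 were higher and 1 (IFI16, a DNA sensor) lower in licorice high. Over all genes, 15.9% were called higher and 15% lower there. Class I antigen presentation moved almost as a block, with 16 of 17 genes higher, 0 lower and a median of 0.34. TAP2, a subunit of the peptide transporter, had 184.9, 183.1 and 178.5 CPM in licorice high libraries, against 130.6, 127.0 and 136.0 CPM in vehicle libraries. TAP1, its partner, had 104.4, 103.7 and 108.0 CPM in licorice high libraries and 73.12, 72.86 and 70.5 CPM in vehicle libraries. In these genes replicate 3 was level with the other licorice libraries. Atractylodes at the high dose raised 14 of the 17 and lowered 0, where 7.24% of all genes were called higher and 6.63% lower.

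Under the drugs, antigen presentation genes were called in both directions. Thioridazine called 8 of the 17 antigen presentation genes higher and 2 lower, where 24.6% of all genes were called higher and 23.8% lower. LY294002 called 7 higher and 4 lower, where 19.4% of all genes were called higher and 19.9% lower. Wortmannin called 4 higher and 4 lower, where 15.4% of all genes were called higher and 16.4% lower. TAP2 was lower with all 3, at 92.21, 87.05 and 95.93 CPM in thioridazine libraries, 92.02, 89.6 and 89.6 CPM in LY294002 libraries and 93.55, 91.81 and 94.18 CPM in wortmannin libraries. HLA-C, a class I heavy chain, was higher with all 3, at 579.3, 570.1 and 616.7 CPM in thioridazine libraries, 516.6, 545.5 and 554.4 CPM in LY294002 libraries, 516.7, 531.5 and 539.9 CPM in wortmannin libraries and 442.4, 433.3 and 420.9 CPM in vehicle libraries.

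SOCS1, which blocks JAK kinases, was the negative regulator with the largest change under the drugs. It had 2.504, 2.291 and 2.037 CPM in wortmannin libraries, 1.455, 1.906 and 2.354 CPM in LY294002 libraries, and 1.58, 1.451 and 1.366 CPM in thioridazine libraries. Vehicle libraries had 4.988, 5.288 and 4.311 CPM, above all of these. The log2 fold changes were -1.13, -1.37 and -1.80. The list of 12 genes that holds SOCS1 also includes ISG20, UBA7 and UBE2L6, which are not inhibitors of the pathway. Under licorice at the high dose 4 of these 12 genes were higher (PTPN2, TRIM21, ISG20 and UBE2L6) and 3 lower (SOCS3, PIAS1 and PTPN1). Over all genes, 15.9% were called higher and 15% lower in that comparison.

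Cell markers moved with the same treatments, and their part in the results was not tested. Of 12 astroglial markers 7 passed the filter, and 4 were lower in licorice high (SLC1A3, VIM, NES and CD44), where 15% of all genes were called lower. Their summed levels over all 12 were 7220 to 7490 CPM in licorice high libraries, 6700 to 6970 CPM in thioridazine libraries and 8690 to 8990 CPM in vehicle libraries. Of 11 immune markers 4 passed, with summed levels of 223 to 253 CPM in licorice high libraries, 239 to 247 CPM in thioridazine libraries, 185 to 195 CPM in LY294002 libraries, 190 to 203 CPM in wortmannin libraries and 169 to 180 CPM in vehicle libraries. CD68, a lysosomal glycoprotein, made up most of that sum and was higher in licorice high, while PTPRC (CD45) was lower. Of 12 neuron, oligodendrocyte, epithelial and endothelial markers 5 passed, with summed levels of 55.1 to 57.1 CPM in licorice high libraries, 98.3 to 105 CPM in thioridazine libraries, 66.4 to 71.2 CPM in LY294002 libraries, 83.2 to 90.2 CPM in wortmannin libraries and 61 to 63.6 CPM in vehicle libraries. SYT1, MBP and PECAM1 were called higher under both thioridazine and wortmannin. CD3E, AIF1, LILRA4 and CLEC4C, which mark T cells, microglia and plasmacytoid dendritic cells, were near 0.

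The members varied together across treatments, with exceptions. Over the 22 group means, the median correlation between pairs of members was 0.49, with 377 of 780 pairs over 0.5 and 4 under -0.5. Over deviations of the 60 libraries from their group means the median was 0.45, with 322 pairs over 0.5. The groups share code sets and the libraries share their depth, so these values are descriptions. Licorice high had the highest group mean of 24 members, thioridazine of 8 and ginseng medium of 3.

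The genes outside the list whose group means were most like the mean of the members were STEAP1B (r = 0.88), PPP3CC (0.879), ZC3H12C (0.873), NAV2-AS6 (0.873) and CSF3 (0.872), each over 22 groups. All were higher in licorice high, which their selection by likeness to the members favours. CSF3, the granulocyte colony-stimulating factor, averaged 17 ± 0.134 CPM in licorice high libraries and 0.242 ± 0.117 CPM in vehicle libraries (SD, n = 3 each), a log2 fold change of 6.04 where the largest of any member was 1.78.

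Some members share exon sequence with other genes. In GENCODE 29, exons of 14 members overlap those of another gene, and the overlap exceeds 10% of the exon length in 5. These are IRF9 (48.4%, with AL136295.5 on the same strand), XAF1 (38.3%, with PRAL), IRF1 (22%, with C5orf56), SP110 (18.4%, with AC009950.1) and TRIM22 (10.7%, with OR56B1). RSAD2 and CMPK2 overlap by 14 bases, and PARP9 and DTX3L by 217 bases, on opposite strands. Whether strand was used in counting is not stated, so reads in overlaps on opposite strands cannot be told apart. The IFIT, OAS, MX, GBP and SAMD9 families hold similar copies, between which the estimation divides shared reads.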

How the data were processed

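RNA of SW1783 cells was sequenced with a directional MGIEasy kit on an MGIseq instrument, per the labels. The deposited values are the authors' expected counts for each gene, not normalized. The submitters' processing notes name STAR 2.7.3a, RSEM 1.3.3, Trim Galore 0.6.5, FastQC 0.11.9 and GRCh38, with the strand setting not given in the sources used here. Among 279 columns, 60 matched a sample by name and 219 were left unused. Values were rounded (9.48% were not whole at a tolerance of 1e-06).

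Samples were grouped by treatment and dose. Library totals were 19446226 to 30870890 counts. edgeR 4.0.16 in R 4.3.3 (filterByExpr, minimum count 10 and minimum total 15, TMM) kept 17919 of 60675 genes. All 60 libraries entered 1 quasi-likelihood fit without a replicate block, tested two-sided with Benjamini-Hochberg adjustment over all genes at 0.05. SEs are the log2 fold change divided by the root of F. CPM are per total count.

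Alternatives were RLE factors, no filter, a replicate block, the groups alone, DESeq2 1.42.0, leaving out 5 libraries that stood apart, and leaving out each library. The pipeline was tested on simulated data. The members and all gene lists were chosen with earlier results of these data known. The members named with the values of every sample were, per comparison, the 4 called with the smallest p and a group mean of at least 1 CPM (3 between doses or drugs), and the 4 with the highest mean CPM. Pathway genes were named up to 2 per list and comparison, by p. Other members and genes given by sample were chosen after their values were seen. Some genes of the pathway and marker lists are not reported here.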

Additional observations from a re-analysis of the deposited data

Results flagged for a closer look

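The high-minus-low dose change was compared between extracts of the same code set, with a test of the difference itself. Between licorice and ginseng that test passed in 7 of 40 members (17.5%), all with the larger change in licorice. Over all genes it passed in 13.4%, with 6.87% larger and 6.52% smaller in licorice. The licorice-minus-ginseng difference on the log2 scale was 0.88 in IFI27, 0.81 in HERC6, 0.71 in IRF7, 0.66 in IFI6, 0.64 in IFIT3, 0.54 in OAS3 and 0.40 in IFI35. IFI6 and OAS3 each lost this call in 7 of 12 fits without 1 library, and HERC6 and IFIT3 without licorice high replicate 3. IFI6 also lost it with the groups of the comparison fitted alone. Between poria and atractylodes the test passed in 1 of 40 members (2.5%), RIGI, and in 3.53% of all genes, so the count was no larger than the background. The poria-minus-atractylodes difference in RIGI was -0.52, a call lost in 10 of 12 fits without 1 library.

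For IRF7, licorice libraries had 7.273, 9.303 and 9.001 CPM at the high dose and 5.913, 5.109 and 6.566 CPM at the low dose. Ginseng libraries had 4.259, 4.677 and 4.443 CPM at the high dose and 5.344, 4.692 and 4.901 CPM at the low dose. The licorice high libraries lay above all other libraries of these 4 groups.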

How the results depend on the processing

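No called value of a named member changed sign, whereas the median over the members in ginseng medium against vehicle was 0.25, and -0.05 without replicate 1, with 18 of 40 positive. RLE factors moved no count of members called by over 1.5 times. In licorice high against vehicle, 34 of 40 members were called, and 33 with RLE, 36 without the filter, 34 with the replicate block, 34 without 5 libraries that stood apart, 32 with DESeq2, 29 with the groups alone and 23 to 33 when single libraries were left out. Counts near 0 moved most. The number of all genes called moved with the settings too. In ginseng medium against vehicle it was 102 in the main fit, 312 without the filter and 600 with the groups alone. In licorice high against vehicle it was 5545, 4957 and 6655. The counts of members below are given without that background, so they show only how the calls depend on the setting.

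Without the filter on low counts, the members called against vehicle were 3 for poria low, 3 for poria medium, 6 for poria high, 5 for atractylodes low, 12 for atractylodes medium, 9 for licorice low, 21 for licorice medium, 15 for ginseng medium, 2 for ginseng high, 2 for angelica low, 4 for angelica medium, 3 for angelica high, 2 for peony low and 2 for peony medium. Between high and low dose they were 3 for poria, 5 for atractylodes and 6 for peony, between wortmannin and LY294002 16, and in the differences of dose effects 9 for poria and atractylodes, 18 for licorice and ginseng and 1 for angelica and peony.

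With the groups of a comparison fitted alone, the counts against vehicle were 5 for poria low, 1 for poria medium, 7 for poria high, 4 for atractylodes low, 10 for atractylodes medium, 5 for atractylodes high, 13 for licorice low, 4 for ginseng high, 4 for angelica medium, 5 for angelica high, 7 for peony low and 7 for peony high. Between high and low dose they were 4 for poria, 2 for atractylodes and 0 for angelica, between wortmannin and LY294002 19, and in the differences of dose effects 3 for poria and atractylodes and 13 for licorice and ginseng.

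DESeq2 called 5 for licorice low, 1 for ginseng medium and 1 for angelica medium, and between high and low dose 2 for atractylodes and 1 for peony. Without the 5 libraries (peony high 1, atractylodes high 1, ginseng low 1, licorice medium 3 and angelica low 2) the counts were 1 for poria medium, 1 for atractylodes medium, 5 for atractylodes high, 1 for ginseng medium, 2 for peony low and 2 for peony high, and 0 between high and low dose of atractylodes, angelica and peony and 0 for poria and atractylodes. A 1.2-fold minimum left 0 for angelica high, and 0 between high and low dose of poria and angelica.

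Same-numbered libraries did not pair: the correlations of their deviations from the group means lay between -0.067 and 0.225, and no comparison had all of them over 0.1. With the replicate block the count was 1 for angelica low against vehicle, 2 for atractylodes and 0 for peony between high and low dose, and 0 for poria and atractylodes. The block moved no other count by over 1.5 times.

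When single libraries were left out, the counts against vehicle ranged over 1 to 3 for poria high, 0 to 1 for atractylodes low, 5 to 8 for atractylodes high, 1 to 2 for licorice low, 0 to 2 for ginseng medium, 0 to 1 for ginseng high, 0 to 2 for angelica medium, 0 to 1 for angelica high, 0 to 1 for peony low, 0 to 1 for peony medium and 1 to 5 for peony high. Between high and low dose they ranged over 0 to 1 for poria, 1 to 2 for atractylodes, 7 to 26 for licorice, 0 to 1 for angelica and 0 to 2 for peony, between wortmannin and LY294002 over 4 to 8, and in the differences of dose effects over 0 to 2 for poria and atractylodes and 3 to 11 for licorice and ginseng. A lone library left in an arm of 2 was assumed to vary like the other groups. The cause of these changes was not tested.

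Vehicle, drugs and extract pairs each came from their own code set, so set and treatment against vehicle cannot be told apart. Groups of 2 or 3 libraries limit the precision, most for members with few counts.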

Other observations

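WARS1, the cytoplasmic tryptophanyl-tRNA synthetase, and IFI16, a nuclear DNA sensor, had the smallest p of the further interferon-induced antiviral genes under thioridazine. WARS1 had 567.4, 574.1 and 571.0 CPM in thioridazine libraries, against 276.1, 270.6 and 268.5 CPM in vehicle libraries. IFI16 had 188.3, 186.7 and 189.5 CPM in thioridazine libraries and 105.2, 105.6 and 103.3 CPM in vehicle libraries. Neither gene overlapped between the groups, and in licorice high libraries IFI16 had 90.66, 92.34 and 93.82 CPM, below all vehicle libraries.

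HLA-B, a class I heavy chain, had 473.2, 492.5 and 514.6 CPM in licorice high libraries and 331.8, 344.1 and 327.7 CPM in vehicle libraries. PSME1, a proteasome activator subunit, had 115.6, 115.3 and 122.9 CPM in licorice high libraries and 94.78, 94.39 and 87.67 CPM in vehicle libraries. Neither overlapped between the groups. Replicate 3 was the highest licorice high library for both, as it was for MX1, which had 24.86, 28.13 and 50.38 CPM in the same libraries. HLA-B and PSME1 were chosen after their values were seen.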
